A study of Mus musculus with 8 samples.

Results

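The ligands and receptors of the tumor necrosis factor (TNF) superfamily were followed in bulk RNA-seq of tumor-associated macrophages (TAMs) from mice with or without functional endosomal Toll-like receptors (TLRs). Members were chosen by name, as the protein-coding genes whose symbol starts with Tnfsf or Tnfrsf, together with Tnf, Lta, Ltb, Ltbr, Cd40, Cd40lg, Cd27, Cd70, Fas, Fasl and Eda2r. This gave 43 members, 18 ligands and 25 receptors, of 26939 genes in the joined count tables. A non-coding antisense gene of matching name, Tnfsf13os, was left out, and relatives with other names, such as Eda, Edar, Ngfr and Relt, fall outside the rule. The tables held 8 libraries, 2 in each of 4 groups, which were WT and Unc93b1 3d/3d mice, each without (control) or with αMARCO treatment. All mice carried orthotopic EO771 tumors, a mouse mammary carcinoma line injected into the mammary fat pad of adult females, and TAMs were sorted at day 21 as viable cells positive for CD45, CD11b and F4/80 and negative for Gr-1. The αMARCO groups received 100 µg of clone ED31, a rat antibody against the scavenger receptor MARCO, on days 3, 6, 9 and 12. The control groups are labelled untreated and named PBS, while the treatment text names an isotype antibody, so the control injection is not settled.

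The 3d allele is a germline point mutation of Unc93b1, the chaperone that carries TLR3, TLR7 and TLR9 to endosomes, and in the mutant mice these receptors are therefore without function in every cell type and not in TAMs alone. The RNA of the mutated gene is still made, so its level does not check the genotype. In WT TAMs Unc93b1 had 16115 and 17416 counts without and 15442 and 18331 with αMARCO, and in the mutant it had 8585 and 13003 without and 12351 and 9420 with it. The genotype field of Unc93b1 3d/3d control replicate 2 is written 3d/4d, while its title reads 3d/3d. Each control library was pooled from several mice, pooling of the αMARCO libraries is not given in the sources used here, and p-values measure the spread between these libraries, whatever its source. Marco itself had at most 17 counts in any library.

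TNF superfamily ligands are made mostly as trimeric membrane proteins that can be cut from the cell surface, and they cluster their receptors on the same or a neighboring cell. Receptors with a death domain, such as TNFR1 and FAS, can recruit caspases. Many receptors of the family, TNFR1 included, recruit TRAF adaptors and turn on NF-κB and MAP kinases. Macrophages are a main source of TNF and carry both of its receptors. Several other members, among them OX40, GITR, 4-1BB, CD27 and their ligands, are known as costimulators passed between antigen-presenting cells and T or NK cells.

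Library totals ran from 15182618 to 26411936 counts, so that 3 counts, the smallest amount taken as detected, came to between 0.114 and 0.198 counts-per-million (CPM). This floor covers counting error only. The 12 macrophage markers, which include Csf1r, Adgre1 and C1qa, summed to between 12750 and 18720 CPM in every library. Unc93b1 3d/3d αMARCO replicate 2 stood apart from its replicate. The root mean square difference of log2 CPM between the pair was 0.687, against 0.227 to 0.302 between the replicates of the other groups, and genes under 1 kilobase were higher in it by a median of 0.46 on the log2 scale while genes over 5 kilobases were lower, with a median of −0.31. Most results that rest on this library are given with and without it.

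The members differed widely in level. On a scale of CPM per kilobase of gene model, 29 of 43 had a mean of at least 1 and 13 of at least 10, of which 4 were ligands and 9 receptors. The 5 most abundant by this measure were Tnfrsf1a (TNFR1) with a mean of 109.9 CPM per kilobase, Tnfsf9 (4-1BBL) with 93.5, Tnfrsf1b (TNFR2) with 88.8, Tnf with 73.2 and Tnfrsf14 (HVEM, the receptor for the ligand LIGHT) with 70.2. TAMs therefore held RNA for TNF and for both of its receptors at the top of the family. At the other end, Eda2r, Tnfrsf11b, Tnfrsf13c, Tnfrsf17 and Tnfrsf19 stayed under 10 counts in every library, and these receptors of ectodysplasin, RANKL, BAFF, APRIL and an orphan receptor of the family were not tested in any comparison. The members together took between 1507 and 1780 CPM of a library. 

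**Figure D1:**
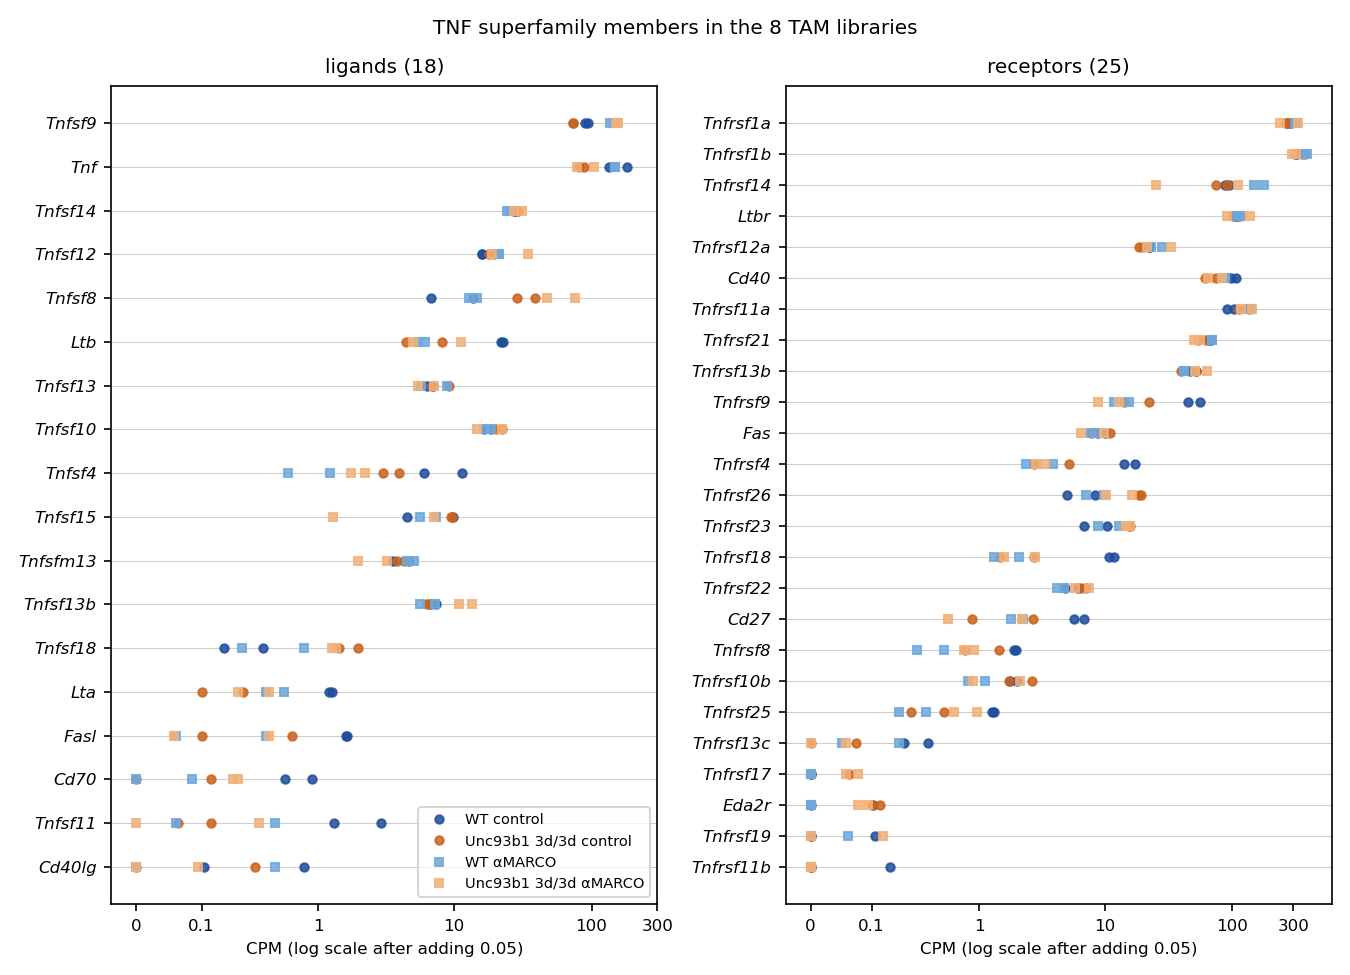
CPM of the 18 ligands (left) and 25 receptors (right) in each library on a log axis after adding 0.05, ordered by mean CPM per kilobase, with a point for each of the 8 libraries colored by group. Tnfrsf1a and Tnfrsf1b lie between 235 and 385 CPM in all libraries, whereas Ltb, Tnfsf4, Tnfrsf9, Tnfrsf4 and Tnfrsf18 show the WT control points to the right of the rest.

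Several members lie side by side in the genome (GRCm38, positions as deposited). Ltb at chr17:35194439-35196320, Tnf at chr17:35199381-35202007 and Lta at chr17:35203165-35205351 form the TNF locus. Tnfsf9 at chr17:57105385-57107757, Cd70 at chr17:57145997-57149777 and Tnfsf14 at chr17:57189492-57194189 lie on the same chromosome, and Tnfrsf4 at chr4:156013843-156016612 stands next to Tnfrsf18 at chr4:156026164-156028895. Tnfsf4 at chr1:161395409-161418410 neighbors Tnfsf18 at chr1:161494655-161505290, and Tnfrsf26 at chr7:143607659-143628722, Tnfrsf22 at chr7:143634806-143649661 and Tnfrsf23 at chr7:143665809-143685872 form a cluster of mouse receptors. Neighbors did not always move together in the comparisons that follow. Tnfsf4 and Tnfsf18, for instance, were called in opposite directions between genotypes.

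Since NF-κB drives many genes of the family, the proximal promoters that RefSeq lists for GRCm38.p6 were searched for the kappaB decamer on both strands, in windows from 250 bases before to 50 bases after the gene start. Promoters were found for 33 members, 37 windows in all, and 4 members held a match, while 8.46% of all 32851 promoters in the table held one. The 4 were Ltb, Tnfrsf25, Tnfrsf8 and the second promoter of Tnfrsf9, and the matches of Ltb and Tnfrsf9 began 87 and 43 bases before the gene start. A match is a description of the letters in the window and not a measured binding site. The windows of Ltb (chr17:35194257-35194556, plus strand) and Tnfrsf9 (chr4:150927749-150928048, plus strand), a ligand and a receptor that were highest in WT control TAMs, are shown with the match in capitals, beside that of Tnf (chr17:35201958-35202257, minus strand), which held no match in its window. In Tnfrsf9 the capitals cover a pair of matches that overlap by all but a base.
Ltb: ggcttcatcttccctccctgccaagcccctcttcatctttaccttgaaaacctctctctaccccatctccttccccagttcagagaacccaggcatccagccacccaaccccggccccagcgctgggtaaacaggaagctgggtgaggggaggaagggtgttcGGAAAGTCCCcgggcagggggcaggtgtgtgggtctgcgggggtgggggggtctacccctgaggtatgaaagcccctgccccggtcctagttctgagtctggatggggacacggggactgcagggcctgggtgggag
Tnfrsf9: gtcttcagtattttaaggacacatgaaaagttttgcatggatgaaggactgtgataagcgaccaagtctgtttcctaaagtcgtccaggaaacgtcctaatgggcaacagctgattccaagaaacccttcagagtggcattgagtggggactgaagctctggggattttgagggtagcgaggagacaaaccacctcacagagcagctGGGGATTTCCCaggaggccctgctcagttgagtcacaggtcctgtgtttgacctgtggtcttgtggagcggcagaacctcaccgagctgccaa
Tnf: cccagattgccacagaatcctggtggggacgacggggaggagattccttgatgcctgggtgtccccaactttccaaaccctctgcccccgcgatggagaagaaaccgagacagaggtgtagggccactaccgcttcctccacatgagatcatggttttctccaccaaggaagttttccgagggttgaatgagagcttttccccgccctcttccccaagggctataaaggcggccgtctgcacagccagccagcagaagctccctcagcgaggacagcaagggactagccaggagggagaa

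The first comparison asked which members depend on functional endosomal TLRs in TAMs without antibody treatment. In control TAMs, WT libraries held more RNA of the ligands Tnf, Lta, Ltb, Tnfsf4 and Tnfsf11 and of the receptors Cd27, Cd40, Tnfrsf4, Tnfrsf9 and Tnfrsf18, whereas Unc93b1 3d/3d libraries held more Tnfsf8, Tnfsf18, Tnfrsf23 and Tnfrsf26. Of the 37 members with enough reads for edgeR's filter on low values, these 14 were called, 10 higher and 4 lower in WT, where a call required an adjusted p of 0.05 or lower and a log2 fold change of 0.5 or more in size. Among all 15600 genes tested, 13.0% were called, 6.58% higher and 6.40% lower in WT. The median log2 fold change, WT over Unc93b1 3d/3d, was 0.12 for the members tested and −0.0036 for all genes tested. Fold changes are given with their standard error and come from edgeR's quasi-likelihood test with Benjamini-Hochberg adjustment.

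Among the ligands, Tnf stood at 134 and 179.6 CPM in the WT control libraries and at 88.0 and 81.3 in the Unc93b1 3d/3d control libraries. Both WT libraries were above both mutant libraries, and the log2 fold change was 0.88 ± 0.14, adjusted p = 0.00473. Ltb, which anchors lymphotoxin α at the membrane, was measured at 22.8 and 22.2 CPM in WT and at 8.16 and 4.46 in Unc93b1 3d/3d TAMs (log2 fold change 1.83 ± 0.26, adjusted p = 0.00321). Lta, lymphotoxin α itself, was low, with 23 and 23 counts in WT and 4 and 2 in the mutant, and was higher in WT by 2.80 on the log2 scale (adjusted p = 0.0261). All 3 genes of the TNF locus were thus higher in WT control TAMs with no overlap between the groups. In this comparison members that were not called, such as Tnfrsf1a and Tnfrsf12a, also showed no overlap. The share of all genes without overlap was not counted. The costimulatory ligand Tnfsf4 (OX40L) had 11.5 and 6.10 CPM in WT and 4.02 and 3.04 in the mutant (log2 fold change 1.31 ± 0.34, adjusted p = 0.0276). Tnfsf11, which encodes RANKL, had 25 and 53 counts in WT control and 2 and 1 in Unc93b1 3d/3d control, a ratio of 25.0 after scaling to library size with a 95% counting interval of 8.25 to 124 (adjusted p = 0.00554). Outside WT control it had at most 12 counts in a library.

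The ligands that went the other way were Tnfsf8 and Tnfsf18. Tnfsf8, the ligand of CD30, was measured at 13.9 and 6.82 CPM in WT control and at 38.7 and 29.0 in Unc93b1 3d/3d control, and was lower in WT by a log2 fold change of −1.72 ± 0.35, adjusted p = 0.0305. Tnfsf18 (GITRL) had 7 and 3 counts in WT and 23 and 39 in the mutant (log2 fold change −2.66 ± 0.62, adjusted p = 0.0181). In both genes each mutant library exceeded each WT library. Tnfsf9, the ligand of 4-1BB, had 90.0 and 94.6 CPM in WT and 73.9 and 73.2 in the mutant. It passed the adjusted p but not the fold change threshold, with a log2 fold change of 0.31 ± 0.09, adjusted p = 0.0428.

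Among the receptors, Tnfrsf9, Tnfrsf4, Tnfrsf18 and Cd27 were several-fold higher in WT control TAMs, while Tnfrsf8 (log2 fold change 0.82 ± 0.47, adjusted p = 0.258) and Tnfrsf25 (1.77 ± 0.61, adjusted p = 0.0738) did not pass. Tnfrsf9 (4-1BB) had 55.4 and 44.9 CPM in WT and 22.4 and 14.1 in Unc93b1 3d/3d TAMs (log2 fold change 1.45 ± 0.22, adjusted p = 0.007). Tnfrsf4 (OX40) had 17.3 and 14.1 CPM against 5.21 and 2.74 (log2 fold change 1.98 ± 0.30, adjusted p = 0.00344). Its neighbor Tnfrsf18 (GITR) had 11.9 and 10.8 CPM against 2.76 and 1.47 (log2 fold change 2.42 ± 0.31, adjusted p = 0.00133). In each of these receptors the lower WT library still lay above the higher mutant library by a wide margin. Cd27, the receptor of CD70, was measured at 5.74 and 6.82 CPM in WT and 2.70 and 0.862 in the mutant, with a log2 fold change of 1.83 ± 0.47, adjusted p = 0.0312. Cd40, the receptor through which T cells license antigen-presenting cells, differed less, with 107 and 96.8 CPM in WT and 60.8 and 75.1 in the mutant (log2 fold change 0.57 ± 0.12, adjusted p = 0.0109). Its ligand Cd40lg had at most 14 counts in any library and was not tested.

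The receptors higher in Unc93b1 3d/3d control TAMs both belong to the mouse cluster that holds the TRAIL decoy receptors. Tnfrsf26 had 8.32 and 5.04 CPM in WT and 19.3 and 18.4 in the mutant, a log2 fold change of −1.51 ± 0.23, adjusted p = 0.00315. Tnfrsf23, a decoy receptor for TRAIL, had 10.4 and 6.82 against 15.8 and 15.4 CPM (log2 fold change −0.87 ± 0.22, adjusted p = 0.0245). The third gene of the cluster, Tnfrsf22, had 6.11 and 4.82 against 6.47 and 7.15 CPM and was not called (log2 fold change −0.33 ± 0.25, adjusted p = 0.377). The WT libraries lay below the mutant libraries for all 3 genes. Exons of Tnfrsf26 and Tnfrsf23 overlap an antisense gene over 3.3% and 4.1% of their bases.

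With all 8 libraries in 1 model, Tnfrsf4, Tnfrsf9 and Tnfrsf18 were called between control genotypes and the other 11 were not. Abundant members such as Tnf and Cd40 were among these 11. In that model 2.19% of 16620 genes were called, against 13.0% of 15600 genes in the main fit. Calls also changed when 1 library at a time was left out, which leaves 1 library in a group. Tnf, Ltb, Tnfsf11, Tnfrsf4, Tnfrsf9, Tnfrsf18 and Tnfrsf26 were called whichever of the 4 libraries was left out. Lta lost its call with any library left out, at log2 fold changes of 2.25 without Unc93b1 3d/3d control replicate 2, 3.52 without replicate 1 of that group, and 2.84 and 2.77 without WT control replicates 1 and 2. Tnfsf4 lost it without either mutant library, at 1.52 and 1.11, and without WT control replicate 1, at 0.79. Tnfsf8 lost it without either mutant library, at −1.49 without replicate 1 and −1.92 without replicate 2, and Tnfrsf23 at −0.85 and −0.90 without these and at −0.59 without WT control replicate 2. Cd27 at 1.19 and Tnfsf18 at −2.42 lost the call without mutant replicate 2, and Cd40 fell under the fold change threshold, at 0.43, without mutant replicate 1.

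**Figure D2:**
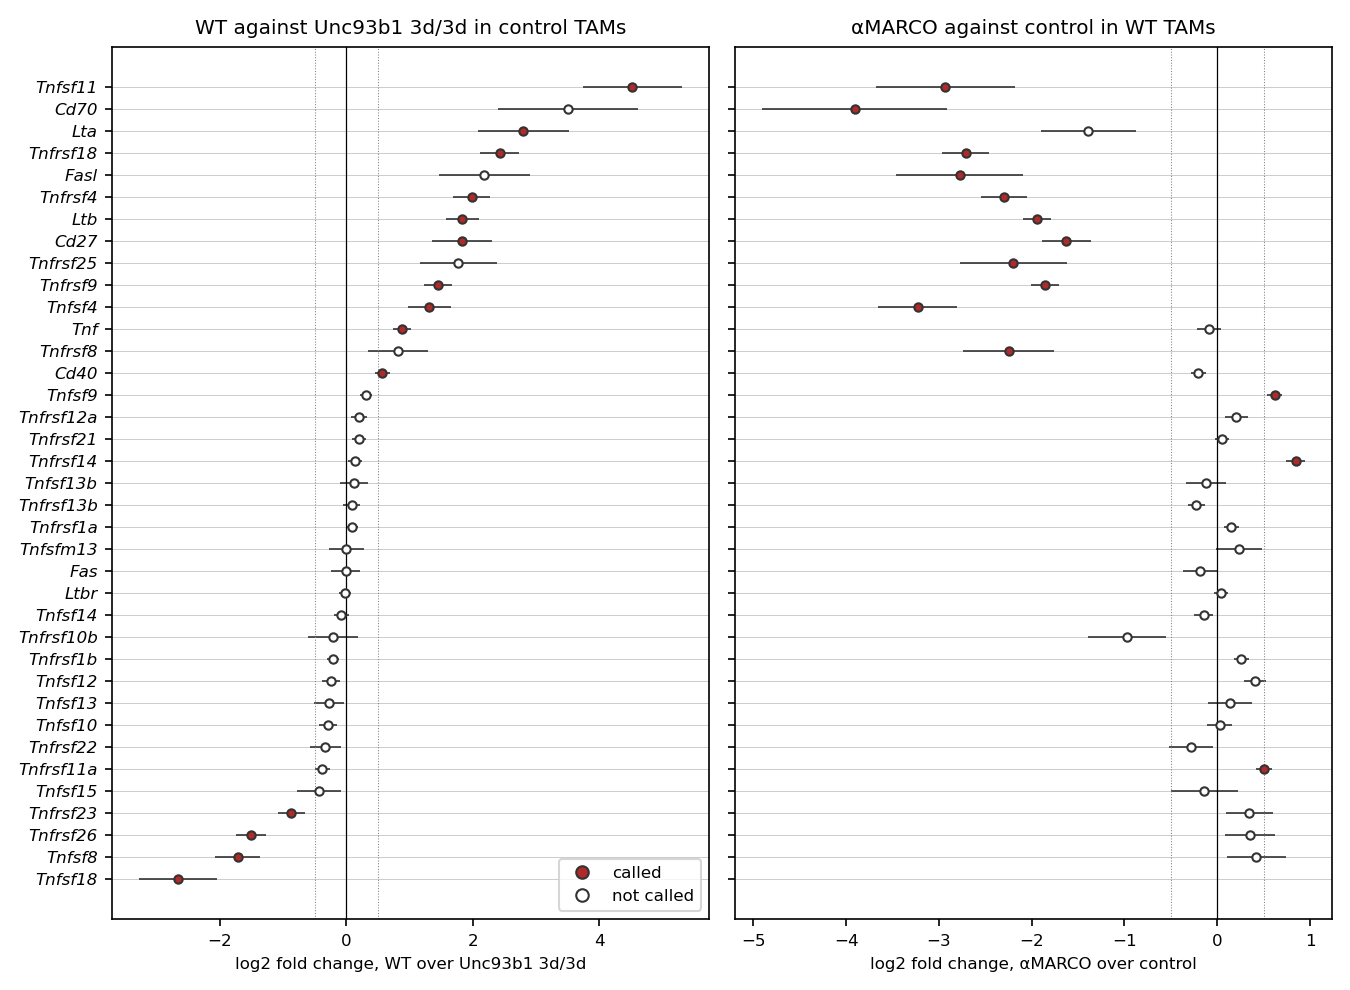
Log2 fold change of each tested member, with bars of 1 standard error, for WT over Unc93b1 3d/3d in control TAMs (left) and αMARCO over control in WT TAMs (right), with called members filled and dotted lines at the fold change threshold of 0.5. Tnfrsf18, Tnfrsf4, Ltb, Cd27, Tnfrsf9, Tnfsf4 and Tnfsf11 lie right of 0 on the left panel and left of 0 on the right panel, and the panels share the 2 WT control libraries.

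Markers of other cell types were also higher in WT control TAMs. The 16 T cell markers found, such as Cd3d and Cd8a, summed to 189 and 210.3 CPM in WT control libraries. With αMARCO they came to 18.1 and 27.7 CPM, and in the mutant to 40.5 and 19.2 without and 12.7 and 13.2 with αMARCO, and all 16 were called higher in WT when the control genotypes were compared. None was at 0 in every library. Cd8a, which marks cytotoxic T cells and some dendritic cells, had 15.7 and 20.3 CPM in WT control and 1.32 and 0.355 in the mutant control. The 4 regulatory T cell markers summed to 70.7 and 62.9 CPM in WT control and to between 10.7 and 35.5 in the other 6 libraries, and the 11 NK cell markers to 182 and 162 against 44.8 to 70.9. The 11 markers of mature dendritic cells summed to 1298 and 808 CPM in WT control and to between 285 and 474 elsewhere, with Ccr7 at 214 and 119 CPM in WT control against 16.4 and 11.1 in the mutant control. In each of these 4 lists the WT control libraries were the highest of the 8. Markers of B cells, at 112 and 157 CPM in WT and 27.9 and 26.6 in mutant control, and of endothelium, at 286 and 289 against 124 and 97.2, were also higher in WT control, while fibroblast markers were lower, at 112 and 87.7 against 190.0 and 159.8. The part of these markers in the results for Tnfrsf4, Tnfrsf9, Tnfrsf18, Cd27, Ltb, Lta, Tnfsf4, Tnfsf11, Cd70 and Fasl was not tested, and in sorted bulk samples fewer cells of a type and less RNA per cell cannot be told apart.

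**Figure D3:**
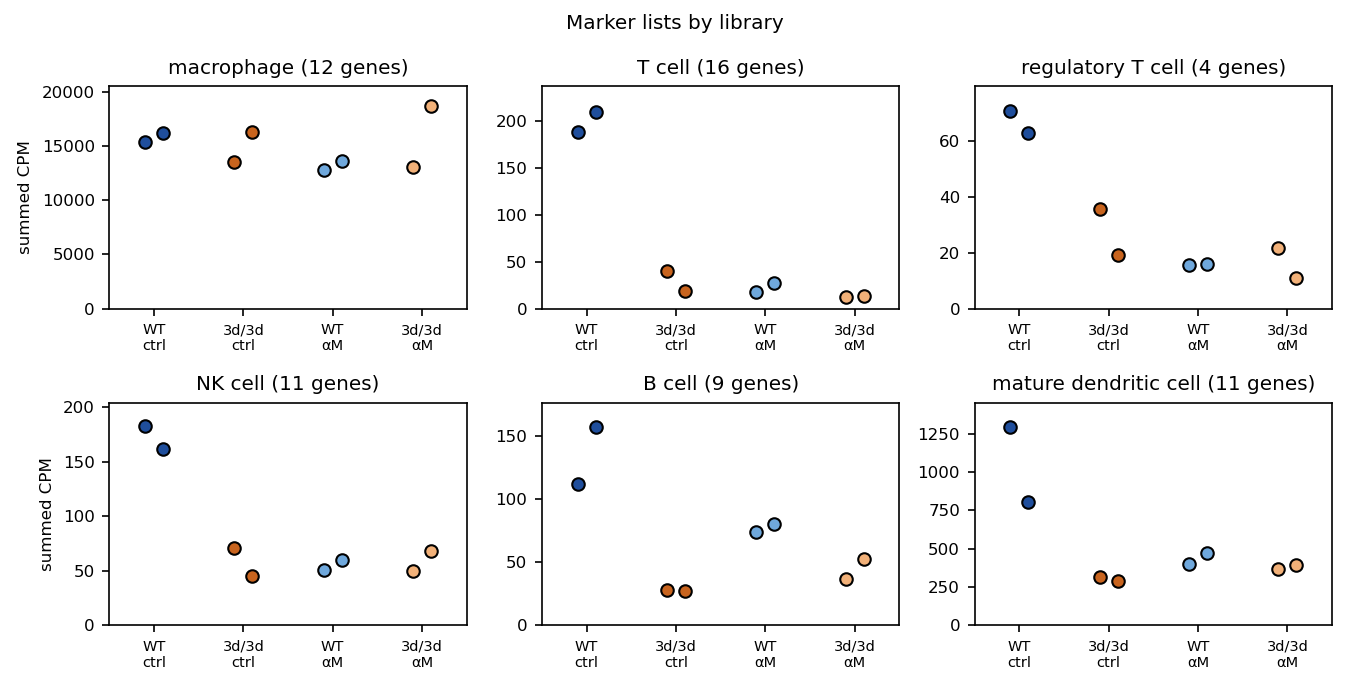
Summed CPM of 6 marker lists in each of the 8 libraries (ctrl, control; αM, αMARCO), with a point for each library and axes starting at 0. The T cell, regulatory T cell, NK cell and mature dendritic cell lists are highest in the 2 WT control libraries, and the macrophage list ranges from 12750 to 18720 CPM over all libraries.

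The next comparison asked what αMARCO treatment changed in WT TAMs. In these, αMARCO libraries held more Tnfsf9, Tnfrsf14 and Tnfrsf11a than control libraries, and less RNA of the ligands Ltb, Fasl, Cd70, Tnfsf4 and Tnfsf11 and of the receptors Cd27, Tnfrsf4, Tnfrsf8, Tnfrsf9, Tnfrsf18 and Tnfrsf25. These were 14 of the 36 members tested, 3 higher and 11 lower with αMARCO, while 20.7% of all 15630 genes were called, 8.91% higher and 11.8% lower. The median log2 fold change, αMARCO over control, was −0.14 for the members tested and −0.012 for all genes tested. This comparison shares the 2 WT control libraries with the genotype comparison, so that a level particular to these libraries enters both.

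The members higher with αMARCO were among the abundant ones. Tnfsf9 rose from 90.0 and 94.6 CPM to 136 and 145, a log2 fold change of 0.62 ± 0.08, adjusted p = 0.000523. Tnfrsf14, which was at 87.4 and 94.5 CPM in the control libraries, reached 178 and 148 with αMARCO (log2 fold change 0.84 ± 0.10, adjusted p = 0.000441). Tnfrsf11a (RANK), the receptor through which RANKL drives osteoclasts, rose from 90.1 and 103 to 139.7 and 132 CPM, just past the fold change threshold (log2 fold change 0.50 ± 0.09, adjusted p = 0.00217). In all 3 the treated libraries were above the control libraries. The exons of Tnfsf9 overlap those of Gm11110 on the other strand over 14.9% of their bases. Strandedness of the counting is not given in the sources used here, and Gm11110 itself had 60 to 140 counts per library while Tnfsf9 had 1177 to 3766.

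Tnf was not among the called members here. It was measured at 147 and 147 CPM in WT αMARCO TAMs, within the range of the WT control libraries, and its log2 fold change was −0.09 ± 0.13, adjusted p = 0.627. Cd40 had 88.0 and 87.6 CPM with αMARCO, below both control libraries, with a log2 fold change of −0.21 ± 0.08, adjusted p = 0.0728 that did not pass the test. The T cell markers summed to 18.1 and 27.7 CPM in WT αMARCO and to 40.5 and 19.2 in Unc93b1 3d/3d control TAMs. The mature dendritic cell markers summed to 397 and 474 CPM in WT αMARCO and to 312 and 285 in Unc93b1 3d/3d control TAMs. The genes of this list did not move together. Cd83 had 261 and 313 CPM in WT αMARCO against 131 and 137, and Relb was also higher. Fscn1, at 35.0 and 37.2 CPM against 51.7 and 38.1, and Ccl22, at 5.58 and 10.9 against 18.2 and 16.8, were lower. Ccr7 overlapped between these groups. Tnf was at 147 and 147 CPM in WT αMARCO and at 88.0 and 81.3 in Unc93b1 3d/3d control TAMs. These groups differ in both genotype and treatment, and no test was run between them. The part of either marker list in the Tnf level was not tested.

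Among the ligands that fell, Ltb was at 6.16 and 5.48 CPM with αMARCO, compared with 22.8 and 22.2 without it (log2 fold change −1.95 ± 0.15, adjusted p = 6.94e-05). Tnfsf4 was at 0.582 and 1.23 CPM, compared with 11.5 and 6.10 (log2 fold change −3.23 ± 0.43, adjusted p = 0.00109). These OX40L levels in WT αMARCO TAMs were the lowest of the 8 libraries. Fasl, the death ligand of cytotoxic lymphocytes, had 31 and 29 counts in control and 1 and 10 with αMARCO (log2 fold change −2.77 ± 0.68, adjusted p = 0.0116). Cd70 had 17 and 10 counts in control and 0 and 2 with αMARCO, a ratio of 17.0 between the groups with a 95% counting interval of 4.26 to 147 (adjusted p = 0.0135). Tnfsf11 had 25 and 53 counts in control and 1 and 12 with αMARCO (log2 fold change −2.93 ± 0.75, adjusted p = 0.0159). The last 3 are thus judged on few reads. None of their groups overlapped, and the share of all genes without overlap was not counted.

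Among the receptors, Tnfrsf9 fell from 55.4 and 44.9 to 11.9 and 15.5 CPM (log2 fold change −1.86 ± 0.15, adjusted p = 0.000125). Tnfrsf4 fell from 17.3 and 14.1 to 2.38 and 3.90 CPM (log2 fold change −2.30 ± 0.24, adjusted p = 0.000263). Tnfrsf18 fell from 11.9 and 10.8 to 1.31 and 2.08 CPM (log2 fold change −2.71 ± 0.26, adjusted p = 0.000152). The treated WT libraries thereby overlapped or fell just under the range of the Unc93b1 3d/3d libraries for these 3 costimulatory receptors. Cd27 had 2.23 and 1.81 CPM with αMARCO against 5.74 and 6.82 in control (log2 fold change −1.63 ± 0.26, adjusted p = 0.00163). Tnfrsf8 (CD30), the receptor of Tnfsf8, had 0.291 and 0.501 CPM against 1.90 and 2.0 (log2 fold change −2.25 ± 0.49, adjusted p = 0.00674). Tnfrsf25 (DR3), a T cell receptor for the ligand TL1A, had 0.194 and 0.347 CPM against 1.32 and 1.27 (log2 fold change −2.20 ± 0.58, adjusted p = 0.0151). Exons of Tnfrsf18 overlap Gm16008 on the other strand over 27.2% of their bases, and Gm16008 had 3 to 18 counts per library. All 16 T cell markers were called lower with αMARCO in WT TAMs as well, and their part in these results was not tested.

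In this comparison too the calls of low members depended on single libraries. With all 8 libraries in 1 model, Tnfsf4, Tnfrsf4, Tnfrsf9 and Tnfrsf18 were called. In that model 0.987% of 16620 genes were called, against 20.7% in the main fit. Without WT αMARCO replicate 1, Fasl at −2.04, Tnfrsf8 at −1.93, Tnfsf11 at −2.16, Cd70 at −3.12, Tnfrsf25 at −1.87 and Tnfrsf11a at 0.47 were no longer called. Without WT αMARCO replicate 2, Cd70 at −6.81, fitted against a library with 0 counts, and Tnfrsf25 at −2.69 were not called, and without WT control replicate 1 Tnfrsf11a fell under the fold change threshold at 0.41. Tnfsf9, Tnfrsf14, Ltb, Tnfsf4, Cd27, Tnfrsf4, Tnfrsf9 and Tnfrsf18 were called whichever library was left out. A filter of 10 counts in every library left 30 members in the fit, of which 9 were called, beside 21.1% of 13833 genes.

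Together, 7 members were called in both comparisons, Cd27, Ltb, Tnfrsf18, Tnfrsf4, Tnfrsf9, Tnfsf11 and Tnfsf4. Each was higher in WT control TAMs than in either of the other groups. Both comparisons use the 2 WT control libraries, so a high level there favors a call in both and in this direction. Of all genes tested, 13.0% were called between control genotypes and 20.7% with αMARCO in WT TAMs, and the share called in both was not counted. Read by ligand and receptor, OX40L and OX40 were both higher in WT control, whereas GITRL was lower and its receptor GITR higher there than in Unc93b1 3d/3d control. With αMARCO in WT TAMs, 4-1BBL rose and its receptor 4-1BB fell. CD70 and CD27 both fell, and so did RANKL while its receptor RANK rose.

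**Figure D4:**
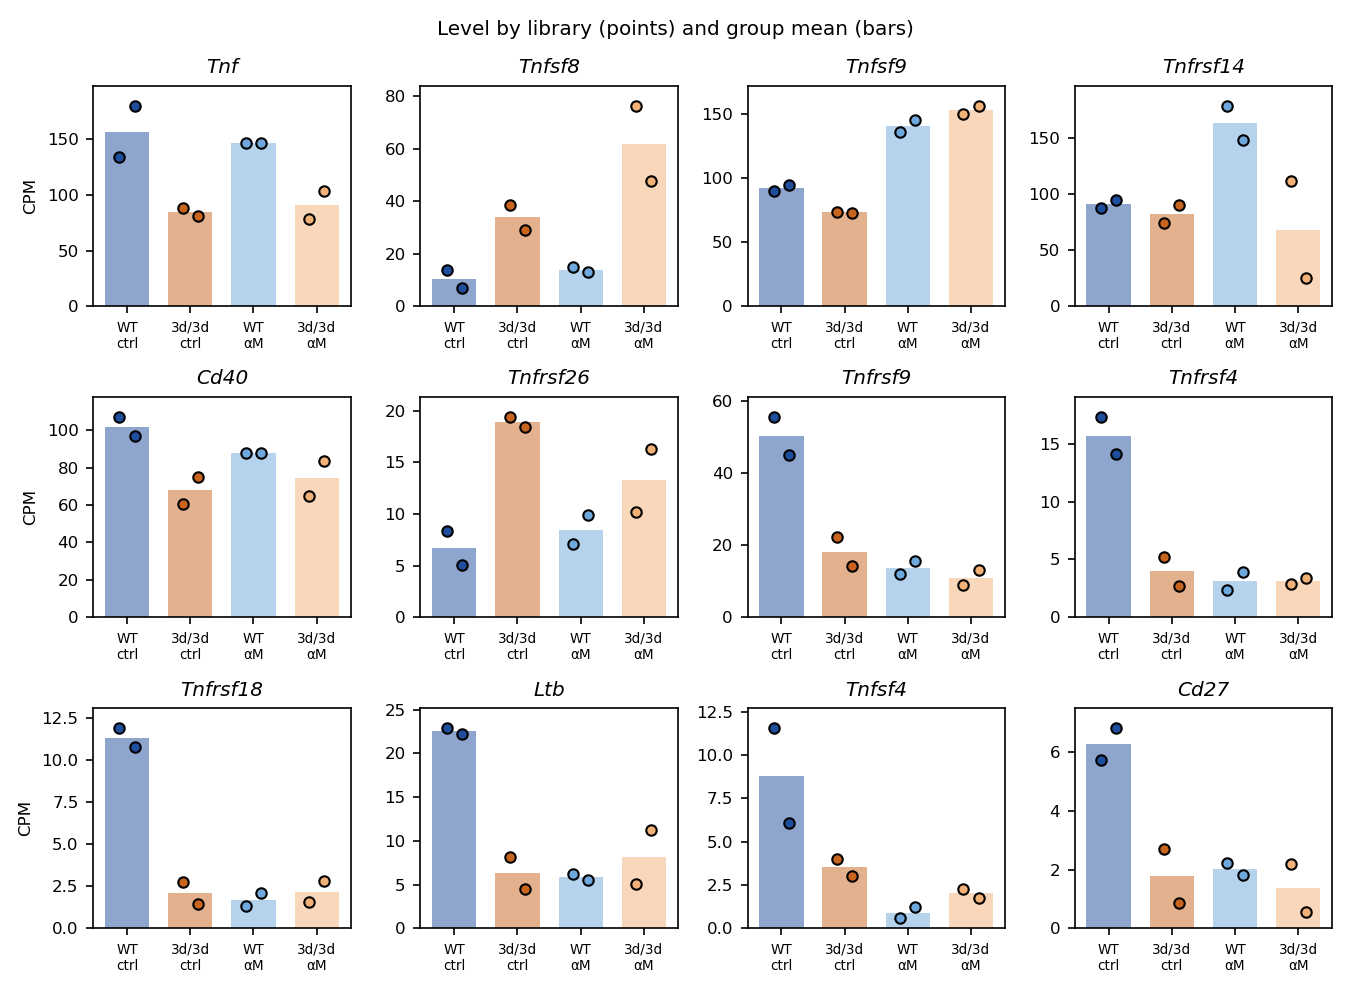
CPM of 12 members in each library (points) of the 4 groups, with the group mean (bars, axes from 0; ctrl, control; αM, αMARCO). Tnf is higher in both WT groups, Tnfsf8 in both Unc93b1 3d/3d groups and Tnfsf9 in both αMARCO groups, while Tnfrsf9, Tnfrsf4, Tnfrsf18, Ltb, Tnfsf4 and Cd27 are highest in WT control.

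The genotypes were also compared under αMARCO, which asked whether members still differed once MARCO was targeted. With both Unc93b1 3d/3d αMARCO libraries in the edgeR fit, 0 of 33 members tested were called, and 0% of all 15722 genes, although 3 members and 1076 genes had an unadjusted p under 0.05. DESeq2 called 214 genes, of which Tnfsf8 was the only member. Without Unc93b1 3d/3d αMARCO replicate 2, which leaves a lone mutant library assumed to vary like the WT libraries, 7.45% of 16795 genes and 5 of 34 members were called, with Tnf, Tnfrsf14 and Tnfrsf9 higher and Tnfsf8 and Tnfsf13b lower in WT. Of all genes 3.44% were higher and 4.02% lower in that fit. Without replicate 1 instead, which keeps the library that stood apart, 12 of 34 members were called beside 38.6% of all genes, without WT αMARCO replicate 1 only Tnfsf8, and without WT αMARCO replicate 2 0 members. The median log2 fold change of the tested members was −0.087 with both libraries and −0.0094 without replicate 2, against −0.031 and −0.0045 for all genes tested.

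Tnfsf8 had the largest log2 fold change of the 33 members tested between genotypes under αMARCO. It was measured at 14.8 and 12.9 CPM in WT αMARCO and at 76.0 and 47.7 in Unc93b1 3d/3d αMARCO TAMs. Both mutant libraries were above both WT libraries, as they were in control TAMs, and the log2 fold change was −2.16 ± 0.29, adjusted p = 0.237 with both mutant libraries and −2.46 ± 0.11, adjusted p = 4.9e-12 without replicate 2. Tnf was at 147 and 147 CPM in WT αMARCO and at 78.8 and 104 in Unc93b1 3d/3d αMARCO TAMs. Its WT libraries again lay above the mutant libraries (log2 fold change 0.69 ± 0.21, adjusted p = 0.647 with both, and 0.90 ± 0.09, adjusted p = 5.78e-07 without replicate 2). The groups did not overlap for Tnf or Tnfsf8 in either treatment. Under αMARCO this was also so for other members that were not called, such as Cd40, Tnfrsf21 and Tnfsf14. The share of all genes without overlap was not counted.

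Tnfrsf14 had 178 and 148 CPM in WT αMARCO TAMs and 111 and 25.4 in the mutant, where replicate 2 was far below the other 7 libraries. Its log2 fold change was 1.25 ± 0.68, adjusted p = 0.709 with both mutant libraries and 0.55 ± 0.11, adjusted p = 0.00259 without replicate 2. Tnfsf13b, which encodes the B cell survival factor BAFF, had 5.63 and 7.33 CPM in WT and 10.97 and 13.6 in mutant αMARCO TAMs, with a log2 fold change of −0.92 ± 0.28, adjusted p = 0.647 and, without replicate 2, −0.75 ± 0.21, adjusted p = 0.026. Both mutant αMARCO libraries were the highest of the 8 for BAFF. Tnfrsf9 had 11.9 and 15.5 CPM in WT and 8.85 and 13.0 in the mutant, groups that overlapped (log2 fold change 0.34 ± 0.30, adjusted p = 0.728, and 0.64 ± 0.20, adjusted p = 0.0384 without replicate 2). Cd40 had 65.0 and 83.4 CPM in mutant αMARCO TAMs, below the WT libraries (log2 fold change 0.25 ± 0.20, adjusted p = 0.718, and 0.44 ± 0.09, adjusted p = 0.00274 without replicate 2, under the fold change threshold). For Tnfrsf26 and Tnfrsf23 both mutant libraries again lay above both WT libraries, at log2 fold changes of −0.63 and −0.49, which became −0.25 and −0.43 without replicate 2 and passed the test in neither fit. Under αMARCO the T cell markers summed to 18.1 and 27.7 CPM in WT TAMs and to 12.7 and 13.2 in the mutant, a smaller gap than in control TAMs.

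In Unc93b1 3d/3d TAMs, αMARCO against control gave 0 called members of 32 with edgeR, and 0% of all 15428 genes, with 3 members and 744 genes at an unadjusted p under 0.05. DESeq2 called 60 genes, among them Tnfsf9 as the only member. Without αMARCO replicate 2, 3.41% of 16754 genes and 4 of 33 members were called, with Tnfsf9 and Tnfsf8 higher and Tnfrsf9 and Tnfrsf26 lower after treatment, beside 1.59% of all genes higher and 1.81% lower. Tnfsf9 went from 73.9 and 73.2 CPM in control to 150.3 and 156 with αMARCO, and its replicates lay close together in every group. The log2 fold change was 1.07 ± 0.20, adjusted p = 0.823 with both αMARCO libraries and 1.03 ± 0.13, adjusted p = 6.62e-09 without replicate 2. In both genotypes the treated libraries lay above the control libraries for Tnfsf9, with 2 libraries per group and no edgeR call in the mutant with both αMARCO libraries. Without αMARCO replicate 1 instead, which keeps the library that stood apart, 9 of 33 members were called beside 34.1% of all genes.

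Tnfsf8, which was already higher in the mutant, went from 38.7 and 29.0 CPM in control to 76.0 and 47.7 with αMARCO (log2 fold change 0.87 ± 0.30, adjusted p = 0.823 with both libraries, and 1.17 ± 0.15, adjusted p = 1.2e-07 without replicate 2). Tnfrsf9 went from 22.4 and 14.1 to 8.85 and 13.0 CPM (log2 fold change −0.73 ± 0.35, adjusted p = 0.823, and −1.04 ± 0.25, adjusted p = 0.00927 without replicate 2). Tnfrsf26 went from 19.3 and 18.4 to 10.2 and 16.3 CPM (log2 fold change −0.51 ± 0.32, adjusted p = 0.823, and −0.89 ± 0.23, adjusted p = 0.00871 without replicate 2). The treated libraries lay outside the range of the control libraries for all 3 genes, and the share of all genes without overlap was not counted. Tnfsf4, which fell in WT TAMs, went in the mutant from 4.02 and 3.04 to 2.26 and 1.77 CPM, also with no overlap but without passing the test (log2 fold change −0.80 ± 0.45, adjusted p = 0.823, and −0.64 ± 0.45, adjusted p = 0.588 without replicate 2). Tnfrsf4, by contrast, had 5.21 and 2.74 CPM in control and 2.84 and 3.40 with αMARCO. Tnfrsf18 had 2.76 and 1.47 CPM in control and 1.58 and 2.79 with αMARCO. For Ltb the control libraries of the mutant held 8.16 and 4.46 CPM and the treated 5.05 and 11.2, and for Cd27 the values were 2.70 and 0.862 in control and 2.21 and 0.544 with αMARCO. Control and treated libraries of the mutant overlapped for these 4 genes.

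**Figure D5:**
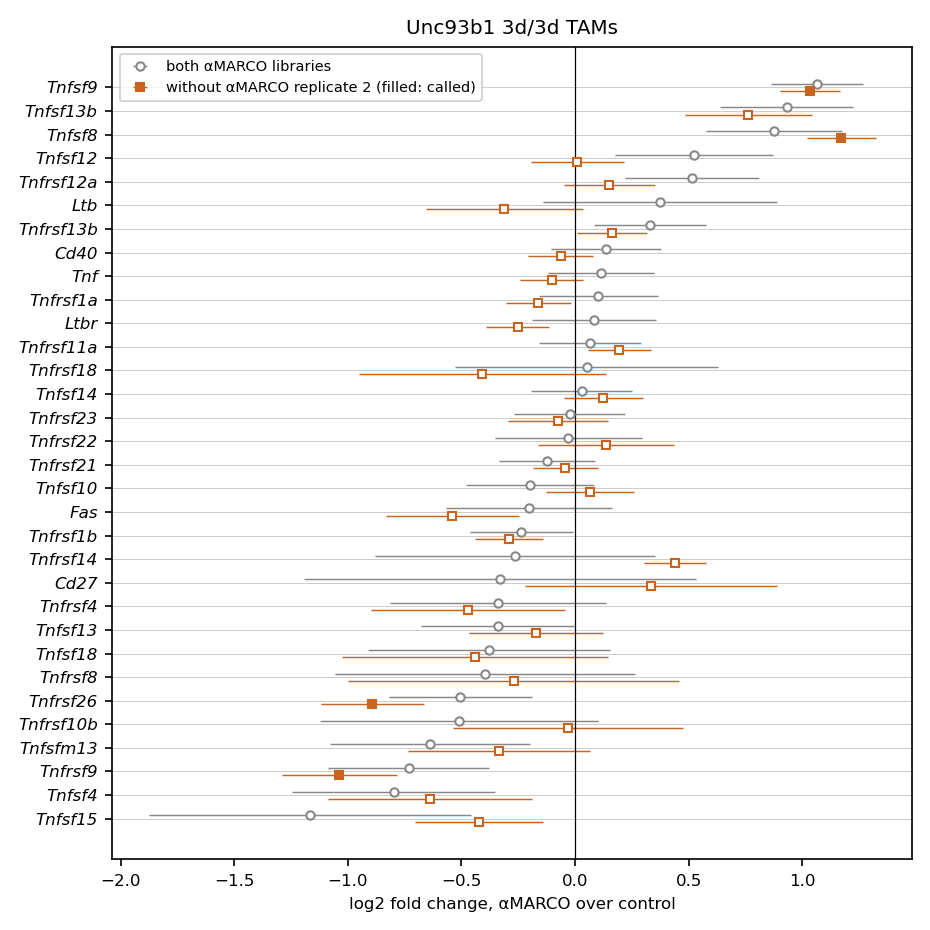
Log2 fold change, αMARCO over control, of the tested members in Unc93b1 3d/3d TAMs with bars of 1 standard error, from both αMARCO libraries (gray circles, 0 called) and without αMARCO replicate 2 (orange squares, called members filled). Tnfsf9 and Tnfsf8 lie right of 0 and Tnfrsf9 and Tnfrsf26 left of 0 in both fits, while Tnfrsf14, Ltb and Cd27, among others, change side.

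Whether the αMARCO effect differed between genotypes was tested as an interaction over all 8 libraries. With edgeR, 0 of 37 members and 0% of 16620 genes were called, with 11 members and 2549 genes at an unadjusted p under 0.05, while DESeq2 called 211 genes, Ltb and Tnfrsf18 among them. Without Unc93b1 3d/3d αMARCO replicate 2, 3.45% of 17724 genes, 1.66% with a positive and 1.79% with a negative difference, and 3 of 38 members were called, Ltb, Tnfrsf18 and Tnfsf4, while without replicate 1 of that group 15 of 38 were called beside 36.4% of all genes. The difference, the effect in WT minus that in Unc93b1 3d/3d TAMs, was −2.77 ± 0.61, adjusted p = 0.304 for Tnfrsf18 with all libraries and −2.33 ± 0.54, adjusted p = 0.0279 without the library. For Ltb it was −2.31 ± 0.57, adjusted p = 0.318 and −1.66 ± 0.37, adjusted p = 0.0279, and for Tnfsf4 −2.45 ± 0.65, adjusted p = 0.318 and −2.61 ± 0.61, adjusted p = 0.0373. These 3 genes fell with αMARCO in WT TAMs, where the control libraries were high, and started at a lower level in the mutant. For Tnfsf9, which rose in WT TAMs, the difference was −0.45 ± 0.18, adjusted p = 0.318, and a p that misses the threshold does not show that the effects were alike.

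In all, 21 of the 43 members, of which 37 were tested, were called in at least 1 comparison with every library in the fit. The calls came from the control genotype comparison and from αMARCO in WT TAMs, where 13.0% and 20.7% of all genes were called. The share of all genes called in at least 1 comparison was not counted. Members that were called in none include both receptors of TNF. Tnfrsf1a, the death domain receptor of TNF, had 290.0 and 275 CPM in WT control TAMs, 262 and 265 in Unc93b1 3d/3d control TAMs, 311 and 313 in WT αMARCO TAMs, and 235 and 327 in Unc93b1 3d/3d αMARCO TAMs. Tnfrsf1b, which signals through TRAF adaptors, had 309 and 320.2 CPM in WT control TAMs, 373 and 349.5 in Unc93b1 3d/3d control TAMs, 365 and 385 in WT αMARCO TAMs, and 295 and 315 in Unc93b1 3d/3d αMARCO TAMs. The highest library stood at 1.39 times the lowest for Tnfrsf1a and at 1.30 times for Tnfrsf1b, while Tnf itself ranged from 78.8 to 179.6 CPM. In control TAMs, the log2 fold change between genotypes was 0.08 ± 0.09, adjusted p = 0.566 for Tnfrsf1a and −0.22 ± 0.09, adjusted p = 0.143 for Tnfrsf1b. Tnfrsf1b passed the adjusted p with αMARCO in WT TAMs but stayed under the fold change threshold (log2 fold change 0.26 ± 0.08, adjusted p = 0.0315).

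Fas, the death receptor of Fasl, had 10.1 and 8.81 CPM in WT control TAMs, 11.1 and 7.81 in Unc93b1 3d/3d control TAMs, 8.78 and 7.71 in WT αMARCO TAMs, and 6.45 and 9.86 in Unc93b1 3d/3d αMARCO TAMs. Tnfsf10 (TRAIL), a death ligand induced by interferons, had 16.5 and 18.7 CPM in WT control TAMs, 22.4 and 20.3 in Unc93b1 3d/3d control TAMs, 18.8 and 17.0 in WT αMARCO TAMs, and 22.3 and 14.8 in Unc93b1 3d/3d αMARCO TAMs. Neither was called, and for TRAIL the control libraries of the mutant lay above those of WT (log2 fold change −0.29 ± 0.14, adjusted p = 0.189), whereas those of Fas overlapped. The TRAIL receptor Tnfrsf10b (DR5) was low, with 2.0 and 1.77 CPM in WT control TAMs, 2.64 and 1.73 in Unc93b1 3d/3d control TAMs, 1.12 and 0.810 in WT αMARCO TAMs, and 2.12 and 0.884 in Unc93b1 3d/3d αMARCO TAMs. Fasl, by contrast, had 10 and 2 counts in Unc93b1 3d/3d control and 1 and 6 in Unc93b1 3d/3d αMARCO, close to its level in WT αMARCO TAMs, and was not called between genotypes in control TAMs (log2 fold change 2.18 ± 0.72, adjusted p = 0.0629). Cd70 in the mutant was at 2 and 0 counts in control and 5 and 3 with αMARCO, and it was not called there either (log2 fold change WT over mutant in control 3.51 ± 1.10, adjusted p = 0.0541).

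Of the B cell factors, Tnfsf13b had 6.79 and 7.43 CPM in WT control and 6.34 and 6.59 in Unc93b1 3d/3d control, levels close to those of WT αMARCO TAMs. Its receptor Tnfrsf13b (TACI), a receptor of BAFF and APRIL, had 51.6 and 46.7 CPM in WT control TAMs, 39.8 and 51.7 in Unc93b1 3d/3d control TAMs, 41.6 and 41.9 in WT αMARCO TAMs, and 51.2 and 63.2 in Unc93b1 3d/3d αMARCO TAMs. TACI was not called in any comparison. Tnfsf12, Tnfsf13 and the read-through gene Tnfsfm13 share exons on the same strand, over 48.3% of the bases of Tnfsf12 and 60.0% of those of Tnfsf13, so reads may have been split between them and their values are uncertain. They lay between 1.97 and 34.8 CPM and none was called. Of the other members not called, Ltbr, the receptor of lymphotoxin and LIGHT, ranged from 91.1 to 137 CPM, Tnfrsf21 (DR6) from 49.9 to 69.5, Tnfsf14 (LIGHT) from 24.2 to 31.4, Tnfrsf12a (the TWEAK receptor) from 18.6 to 33.3, Tnfsf15 (TL1A) from 1.29 to 9.92 and Tnfrsf22 from 4.17 to 7.49. The lowest values of Tnfsf15 and Tnfsfm13 and the highest of Tnfsf12, Tnfrsf12a and Ltbr were those of Unc93b1 3d/3d αMARCO replicate 2.

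Genes of the TNF pathway were followed in a list of 85, which holds TRAF adaptors, receptor complex and death signalling genes, kinases and transcription factors, 13 genes that shed TNF or control mRNA, and TNF-induced genes, and of which 82 were tested. In control TAMs 19 were called higher and 3 lower in WT, beside 6.58% and 6.40% of all genes tested, with a median log2 fold change of 0.12 over the list against −0.0036 over all genes tested. The largest changes were those of Nfkbia, the inhibitor that NF-κB itself induces, which had 549 and 507 CPM in WT and 201 and 181 in Unc93b1 3d/3d control TAMs (log2 fold change 1.45 ± 0.10, adjusted p = 5.61e-05), and of Il6, Mmp9, Traf1 and Cxcl1, with log2 fold changes of 1.42, 1.40, 1.30 and 1.19. These 5 are the called genes of largest change among those without overlap, so the lack of overlap was set by that choice. In the same comparison all 16 T cell markers and 5 of the 9 mature dendritic cell markers tested were called higher, Relb stands in both the pathway and the dendritic cell list, and the part of these markers in the results for this list, for Tnf and for Cd40 was not tested. Among the 10 TRAF adaptors and their regulators, Traf1, Tnip1 and Tnip3 rose in WT and 7 did not pass. Traf1, an adaptor of TNFR2, OX40 and 4-1BB, had 191 and 147 CPM in WT against 75.8 and 59.9 (log2 fold change 1.30 ± 0.16, adjusted p = 0.00268), and Tnip1, which restrains NF-κB signalling, had 124 and 161 against 74.0 and 66.8 (log2 fold change 1.0 ± 0.13, adjusted p = 0.0021).

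With αMARCO in WT TAMs, 4 genes of this list were called higher and 14 lower, beside 8.91% and 11.8% of all genes tested and 20.7% in all. By adjusted p alone the split was 20 higher and 19 lower. The median log2 fold change was 0.038 against −0.012 over all genes tested. The largest changes with groups that did not overlap were in Traf4, Il6, Csf1, Vcam1 and Cxcl1, with log2 fold changes of −1.38, −1.10, −1.08, −0.96 and −0.90. All 5 fell with treatment. Of the TRAF adaptors list, Traf1 and Traf4 fell and Tnip3 rose. Traf1 came to 88.0 and 95.1 CPM, whereas Tnip1 had 126 and 125 CPM, with groups that overlapped. With all 8 libraries in 1 model, 7 genes of the list were called between genotypes in control TAMs and 0 with αMARCO in WT TAMs. Of all genes tested, 2.19% and 0.987% were called in that model. In the other comparisons 0 of 82 were called by edgeR, with 18 at an unadjusted p under 0.05 between genotypes under αMARCO, 4 for αMARCO in Unc93b1 3d/3d TAMs and 15 for the interaction. DESeq2 called 3, 1 and 0 of them, and without Unc93b1 3d/3d αMARCO replicate 2 the counts were 19, 5 and 5.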

How the data were processed

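TAMs were sorted from EO771 tumors and mRNA purified with poly-T beads was sequenced in 8 bulk libraries, 2 per group. Per the submitters' processing notes and the methods, the authors trimmed reads with fastp, aligned them to GRCm38 with HISAT2 2.0.5 and counted reads per gene with featureCounts 1.5.0. The deposited files are 3 tables of pairwise comparisons, each with raw counts per gene, which were used here. The same tables hold a signal column per library, which is the count divided by a size factor that the authors set with DESeq2 1.40.2, and FPKM values computed by the authors, neither of which was used. The log2 fold changes and p-values of the authors' own comparisons, also deposited, were not used. How strand and reads shared between genes were treated is not given in the sources used here.

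Counts were joined by gene identifier, a gene absent from a table being set to 0. All 95230 counts present in more than 1 table were equal. Comparisons were fitted over all genes with edgeR 4.0.16 (R 4.3.3): TMM scaling, filterByExpr, the robust quasi-likelihood test and Benjamini-Hochberg adjustment, on the 4 libraries of a comparison, or on all 8 for the interaction. A call required an adjusted p of 0.05 or lower and a log2 fold change of 0.5 or more in size. DESeq2 1.42.0 served as an alternative. The code was tested on simulated data. CPM values use TMM factors over 8 libraries, and CPM per kilobase divides them by the deposited gene length. Totals ran from 15182618 to 26411936 counts per library.

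Values per library are given for called members, for the 5 with the highest mean CPM per kilobase and for a fixed set of ligand and receptor pairs, and other members by range. From the pathway list, the 5 called genes of largest change without overlap between groups and the TRAF adaptors are named. The members, gene lists and tests were chosen with earlier results of these data known. Alternatives were another tool, another scaling, other filters and thresholds, 1 model for all libraries, a replicate block and each library left out. Replicate numbers were not taken as pairs: deviations of libraries with the same number correlated at 0.016, 0.151, −0.019 and 0.134 in the 4 comparisons, with only 2 pairs in each.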

Additional observations from a re-analysis of the deposited data

Results flagged for a closer look

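For 3 members, picked for this pattern, the αMARCO libraries lay beyond the control libraries in opposite directions in the 2 genotypes. The share of all genes with this pattern was not counted. Cd70 had 17 and 10 counts in WT control and 0 and 2 in WT αMARCO, but 2 and 0 in Unc93b1 3d/3d control and 5 and 3 in Unc93b1 3d/3d αMARCO, a difference of effects, WT minus Unc93b1 3d/3d, of −5.72 ± 1.83 on the log2 scale. Tnfrsf25 had 25 and 23 counts in WT control and 4 and 9 in WT αMARCO, but 8 and 5 in Unc93b1 3d/3d control and 21 and 9 in Unc93b1 3d/3d αMARCO, a difference of −3.28 ± 0.91. Tnfrsf1b had a difference of 0.50 ± 0.20, with higher CPM under αMARCO in WT TAMs and lower CPM in Unc93b1 3d/3d TAMs. None passed the test of the difference, each with an adjusted p of 0.318 (edgeR over all genes tested).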

How the results depend on the processing

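With 2 libraries per group, the calls of low members rest on few reads, and those of Unc93b1 3d/3d αMARCO on which of its libraries is kept. No member called in the main fits changed direction under any alternative run, which covers the control genotype comparison and αMARCO in WT TAMs only. The other comparisons had no called member that could change, and estimates there did change sign. For αMARCO in Unc93b1 3d/3d TAMs, Tnfrsf14 had a log2 fold change of −1.67 without αMARCO replicate 1 and of 0.44 without replicate 2. For the genotype comparison in control TAMs, 14 members were called, 3 with all 8 libraries in 1 model and 8 to 14 with a library left out. For αMARCO in WT TAMs the corresponding counts were 14, 4 and 8 to 16, and 9 with at least 10 counts in every library. Between genotypes under αMARCO, 0 members were called, but 1 each with DESeq2, with all 8 libraries in 1 model, with no filter and with the replicate block, and 0 to 12 with a library left out. For αMARCO in Unc93b1 3d/3d TAMs, 0 were called, 1 with DESeq2, 1 with no filter and 0 to 9 with a library left out. For the difference of effects, 0 were called, 2 with DESeq2, 3 with no filter and 0 to 15 with a library left out. Of all genes tested, 2.19% were called between control genotypes with all 8 libraries in 1 model, against 13.0% in the main fit. For αMARCO in WT TAMs these shares were 0.987% and 20.7%, and 21.1% with at least 10 counts in every library. The replicate numbers were not taken as pairs. The replicate block called 16 members between control genotypes, the main 14 with Cd70 and Fasl, and 14 for αMARCO in WT TAMs. It called 1, Tnfsf8, between genotypes under αMARCO, and 0 for αMARCO in Unc93b1 3d/3d TAMs and for the difference of effects.

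Of the pathway list, 22 genes were called between control genotypes, 7 with all 8 libraries in 1 model and 6 at a log2 fold change of 1 or more in size. For αMARCO in WT TAMs the counts were 18, 0 with all 8 libraries, 39 by adjusted p alone (20 higher and 19 lower) and 3 at the stricter fold change. Between genotypes under αMARCO they were 0, 3 with DESeq2, 2 with all 8 libraries and 0 to 32 with a library left out. For αMARCO in Unc93b1 3d/3d TAMs they were 0, 1 with DESeq2, 1 with no filter and 0 to 17 with a library left out, and for the difference 0 and 0 to 24. Where a count fell with all 8 libraries in 1 model, the cause was not tested.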
